A study of Mus musculus with 556 samples.

Results

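The genes described here are the mouse zinc finger genes that sit in clusters: autosomal protein-coding genes with a symbol of Zfp plus digits (Zfp42 and Zfp352 left out) that have at least 4 other such genes with midpoints within 1 Mb. They number 178 of the 358 autosomal Zfp genes of that naming, and the other 180 have fewer neighbours. Neighbouring midpoints no more than 1 Mb apart were joined, which gave 19 clusters, named here by their first and last gene on the chromosome. The rule uses gene positions and symbols only, but it was chosen with earlier results of these data known. At the edge of the rule, 9 members had exactly 4 neighbours (Zfp966, Zfp653, Zfp872, Zfp809, Zfp599, Zfp810, Zfp251, Zfp7 and Zfp647), and 27 Zfp genes left out had exactly 3.

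Most clustered Zfp genes encode C2H2 zinc finger proteins, and many of these carry a KRAB domain that recruits the co-repressor TRIM28 and, through it, the histone methyltransferase SETDB1, which silences retrotransposons and other targets with H3K9 methylation. The clusters grew by tandem gene duplication and differ between mouse strains and species. Lamina-associated domains (LADs) are stretches of chromosome that touch the nuclear lamina at the rim of the nucleus, and they are usually poor in genes and low in transcription. In DamID a bacterial adenine methyltransferase (Dam), free or fused to lamin B1, methylates the A of GATC where it reaches DNA. Dam-lamin B1 therefore marks DNA near the lamina, and free Dam marks DNA that is accessible.

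The study profiled single mouse oocytes, zygotes, isolated parental pronuclei, blastomeres and embryonic stem (ES) cells by DamID. Each cell has an observed over expected read ratio (OE) in every 100 kb bin of the mm10 genome, and at an OE of 1 the reads equal those the authors expected for the bin. The Dam-lamin B1 cells used here were 56 oocytes, another 17 and 23 oocytes with labels of 20 ng and 50 ng, 19 zygotes, 47 blastomeres of the 2-cell stage, 41 of the 8-cell stage and 10 ES cells. Free Dam was expressed in 43 oocytes, 46 zygotes, 45 blastomeres of the 2-cell stage and 4 of the 8-cell stage. Isolated pronuclei, all with Dam-lamin B1, were 15 paternal and 10 maternal without Kdm5b, 19 paternal and 19 maternal with wild-type Kdm5b, and 6 paternal and 13 maternal with mutant Kdm5b. Whole Dam-lamin B1 zygotes also came with wild-type (14) or mutant (9) Kdm5b, with wild-type (12) or mutant (10) Kdm4d, and with aphidicolin (9) or its solvent DMSO (11).

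Every oocyte and embryo group received injected mRNA for the construct together with TIR1 and a membrane EGFP, and the tagged Dam protein was kept degraded by auxin until 6 to 8 h before collection. Dam-lamin B1 mRNA was injected at 5 ng/µl in oocytes and zygotes, 10 ng/µl at the 2-cell stage and 20 ng/µl at the 8-cell stage, and Dam mRNA at 20 ng/µl in oocytes and zygotes and 40 ng/µl later. Kdm5b mRNA, at 2 µg/µl with 5 ng/µl Dam-lamin B1 mRNA, went in 18 h after hCG, and auxin was removed at 21 h. No dose is named for Kdm4d, for the aphidicolin and DMSO zygotes or for the pronuclei without Kdm5b, and the mutations are not described. The strain label reads C57BL/6 for oocytes and isolated pronuclei, C57BL/6 mother and CAST/EiJ father for whole embryos, and 129/Sv mother and CAST/EiJ father for ES cells. The protocol text names CBAxC57BL/6J F1 females of 5 to 8 weeks as mothers, so the 2 sources differ. One pronucleus was taken from each zygote, and its parent was read from its size and its position relative to the second polar body. Mothers, litters and days are not named in the labels, and p-values therefore measure only the spread between these cells.

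Recovered depth ran from 23563 to 1091058 reads per cell with a median of 71769.5, so a 100 kb bin often rested on a few reads and 1 Mb windows were tested beside it. Between Dam-lamin B1 and Dam zygotes the median depths were 41810 and 94294 reads. Between paternal and maternal pronuclei they were 144974 and 83404.5 reads without Kdm5b, 104964 and 74908 with wild-type Kdm5b, and 103855.5 and 52538 with mutant Kdm5b. The part of these depth differences in the results was not tested, beyond an alternative in which every cell was thinned to equal reads. The 178 members fell into 103 bins and 34 windows of 1 Mb, and Zfp966 on chromosome 2 lay in a bin without a value, which left 102 bins and 33 windows. A window averages all of its bins with a value, with or without a member, so its result is not that of the members alone. The fit was limma on log2(OE + 0.25), with p-values adjusted over all bins or all windows of the genome and calls made at an adjusted p below 0.05.

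The Zfp990 to Zfp933 cluster on chromosome 4 carried the parental difference described below, and some of its promoters closely resemble another promoter of the cluster. The 250 bases before the annotated start of the 3 genes whose bins differed between pronuclei (Zfp988, Zfp982, Zfp985), and of their neighbour Zfp534, are given from RefSeq on GRCm38.p6, 5′ to 3′ on the gene's strand, with GATC, the site that Dam methylates, in capitals.
Zfp988, chr4:147305354-147305603, plus strand: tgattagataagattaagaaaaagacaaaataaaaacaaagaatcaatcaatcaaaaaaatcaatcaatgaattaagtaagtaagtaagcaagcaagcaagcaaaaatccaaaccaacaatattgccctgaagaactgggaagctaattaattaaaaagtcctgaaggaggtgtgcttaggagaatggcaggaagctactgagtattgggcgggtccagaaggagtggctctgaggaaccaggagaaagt
Zfp982, chr4:147442864-147443113, plus strand: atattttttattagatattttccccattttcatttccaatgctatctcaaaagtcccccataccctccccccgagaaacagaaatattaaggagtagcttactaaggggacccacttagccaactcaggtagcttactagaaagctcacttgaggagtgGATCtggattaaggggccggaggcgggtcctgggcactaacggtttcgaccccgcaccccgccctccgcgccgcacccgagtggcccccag
Zfp985, chr4:147553027-147553276, plus strand: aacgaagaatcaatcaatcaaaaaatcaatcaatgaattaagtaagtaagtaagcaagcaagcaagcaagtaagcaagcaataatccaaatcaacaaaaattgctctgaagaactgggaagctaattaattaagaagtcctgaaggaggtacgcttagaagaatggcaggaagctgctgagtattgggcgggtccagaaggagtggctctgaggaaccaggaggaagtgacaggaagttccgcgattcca
Zfp534, chr4:147702632-147702881, minus strand: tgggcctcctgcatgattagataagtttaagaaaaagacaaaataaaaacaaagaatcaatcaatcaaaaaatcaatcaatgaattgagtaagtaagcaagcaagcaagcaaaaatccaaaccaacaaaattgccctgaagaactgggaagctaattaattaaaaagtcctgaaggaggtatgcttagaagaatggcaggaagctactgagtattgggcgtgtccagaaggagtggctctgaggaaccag

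Zfp982 had 1 GATC and 11 CpG in these bases, whereas the other promoters shown had no GATC and 1 (Zfp988), 5 (Zfp985) and 1 (Zfp534) CpG. Over the RefSeq promoter windows of 300 bases (250 before and 50 after the start), Zfp988 and Zfp534 were 89.3% identical, Zfp988 and Zfp985 74.7%, and Zfp985 and Zfp534 69.3%. Zfp982 stood apart at 43% to 45% identity to the other promoters shown, against a median of 45% over 8718 pairs of clustered Zfp promoters on different chromosomes. In this cluster the median promoter was 84.3% identical to its nearest partner (12 promoters, highest 94.7%). Of all 154 members with a promoter in the table, 18 had a partner of at least 80% identity, and 7 of these belonged to this cluster. Levels of single genes in this cluster are uncertain, since reads can match several copies and their handling in the authors' mapping is not described.

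GATC, which is its own reverse complement, occurred in 78 of the 154 member promoters (50.6%), in 73 of 145 promoters of the other Zfp genes (50.3%) and in 12260 of 25748 autosomal promoters (47.6%). Member promoters had a median of 11 CpG in 300 bases, the other Zfp promoters 16 and all autosomal promoters 7. The autosomal set was not limited to protein-coding genes, as the Zfp lists are, so it is not a like background. The chromosome 4 cluster had GATC in 3 of 12 promoters, and the Zfp60 to Zfp36 cluster on chromosome 7 had it in 6 of 6.

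The 2 longest clusters lay whole inside LADs of the blastocyst. The Zfp990 to Zfp933 cluster (chr4:145510759-147849126) has 16 members in 14 bins over 2.31 Mb, with Zfp991 in its middle, and KRAB clusters of chromosomes 4 and 13 are known from deletion work as repressors of retrotransposons. The Zfp160 to Zfp40 cluster (chr17:21008941-23193284, middle gene Zfp820) has 21 members in 14 bins over 2.16 Mb. In the deposited LAD lists of the inner cell mass (ICM) and trophectoderm (TE) of the blastocyst, all members of both clusters lay in bins covered for at least 50% by LADs in both tissues. So did the 6 members of Zfp317 to Zfp846 (chr9:19622038-20605404, middle gene Zfp26), whose span also holds 16 olfactory receptor genes, and Zfp970 (chr2:177464742-177479194).

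Over all members with a value, 57 of 177 (32.2%) lay in bins of both LAD lists and 86 of 177 (48.6%) in neither. The other Zfp genes had 41 of 177 (23.2%) in both lists, all protein-coding genes 27.2%, the Olfr olfactory receptor genes, another clustered family, 944 of 1099 (85.9%), and all bins 50.3%. There is 1 list per tissue, so these shares have no error.

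There were 7 clusters with every member in neither list, each under 1 Mb long. They were Zfp786 to Zfp775 (chr6:47815536-48621548, middle gene Zfp956), Zfp60 to Zfp36 (chr7:27731409-28379228, Zfp59), Zfp84 to Zfp146 (chr7:29768552-30169775, Zfp74), Zfp553 to Zfp646 (chr7:127233061-127885996, Zfp764), Zfp653 to Zfp810 (chr9:22055411-22307814, Zfp809), Zfp623 to Zfp647 (chr15:75940949-76925693, Zfp251) and Zfp871 to Zfp414 (chr17:32765496-33631716, Zfp952). Zfp809 is known for silencing murine leukaemia viruses in embryonic cells. Zfp36, which encodes tristetraprolin, is no C2H2 gene: its CCCH fingers bind AU-rich mRNA, and it met the rule by its symbol and place. Zfp180 to Zfp526 (chr7:24081877-25227876, Zfp108) had 13 of its 14 members in neither list, and Zfp930 to Zfp866 (chr8:69209018-69774911, Zfp964) 5 of 6.

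In 4 of the remaining clusters most members lay in LADs of 1 tissue only. All 6 members of Zfp628 to Zfp580 (chr7:4915181-5053723, Zfp524) and 7 of 10 members of Zfp787 to Zfp772 (chr7:6131489-7209998, Zfp78) lay in LADs of the ICM list only. In the TE list only lay 16 of 20 members of Zfp640 to Zfp273 (chr13:66670274-67827000, Zfp456) and 5 of 7 members of Zfp551 to Zfp446 (chr7:12412549-12985717, Zfp110). Zfp141 to Zfp819 (chr7:42473386-43618279, Zfp936) had 5 members in both lists and 4 in neither.

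Among clusters of more than 1 bin, the chromosome 4 cluster had the highest Dam-lamin B1 mean in 8-cell blastomeres. Levels by stage are a description: the labels tie cells to no animal or embryo, a stage therefore counts as 1 sample, and stages were not tested against each other. With Dam-lamin B1 its mean OE was 1.91 ± 1.80 in oocytes (n = 56), 2.89 ± 1.31 in zygotes (n = 19), 1.42 ± 0.711 in 2-cell blastomeres (n = 47), 5.08 ± 1.39 in 8-cell blastomeres (n = 41) and 1.62 ± 0.506 in ES cells (SD, n = 10). With free Dam it was 1.92 ± 0.332 in oocytes (n = 43), 2.06 ± 0.552 in zygotes (n = 46), 2.34 ± 0.690 in 2-cell blastomeres (n = 45) and 2.29 ± 0.394 in 8-cell blastomeres (SD, n = 4). All of these means lie above 1, with either construct. Expected reads in the bins of its members were low, with a median of 0.362 of the genome median. The part of this in its OE was not tested. Oocytes labelled 20 ng and 50 ng averaged 2.37 ± 1.39 (n = 17) and 2.14 ± 0.699 (SD, n = 23) with Dam-lamin B1. The 8-cell Dam-lamin B1 cells ran from 0.0650 through a median of 5.06 to 8.23 and the 8-cell Dam cells from 1.95 through 2.20 to 2.83, so the highest Dam cell lay under the median Dam-lamin B1 cell. In 2-cell blastomeres the order was the other way, with medians of 1.38 with Dam-lamin B1 and 2.29 for Dam and overlapping ranges.

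With Dam-lamin B1 the single bin of Zfp970 on chromosome 2 followed the same course with wider spread. Its mean OE with Dam-lamin B1 was 0.817 ± 1.56 in oocytes, 3.67 ± 5.77 in zygotes, 2.44 ± 2.52 in 2-cell blastomeres, 9.74 ± 4.78 in 8-cell blastomeres and 2.44 ± 1.63 in ES cells. With free Dam it was 1.09 ± 0.912, 2.80 ± 2.19, 3.47 ± 2.53 and 2.13 ± 3.58 in oocytes, zygotes, 2-cell and 8-cell blastomeres. The last mean rests on 1 of 4 Dam cells, which had 7.44, while the next had 1.08 and the median was 0.542. Only 1 bin stands behind these values, and its expected reads were 0.305 of the genome median.

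The Zfp160 to Zfp40 cluster of chromosome 17 had Dam-lamin B1 means of 1.10 ± 1.01 in oocytes, 1.23 ± 0.594 in zygotes, 1.39 ± 0.631 in 2-cell blastomeres, 1.87 ± 0.669 in 8-cell blastomeres and 1.26 ± 0.384 in ES cells. Its free Dam means stayed between 0.780 ± 0.143 (8-cell) and 0.980 ± 0.258 (2-cell). At each of the 4 stages with both constructs its Dam-lamin B1 mean was the higher of the pair.

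The Zfp640 to Zfp273 cluster of chromosome 13, the other large cluster, had a lower mean with Dam-lamin B1 than with free Dam from the zygote to the 8-cell stage. Its Dam-lamin B1 means were 1.23 ± 1.07 in oocytes, 0.650 ± 0.274 in zygotes, 0.351 ± 0.256 in 2-cell blastomeres, 1.26 ± 0.695 in 8-cell blastomeres and 0.522 ± 0.175 in ES cells. Its free Dam means were 0.982 ± 0.208 in oocytes, 1.04 ± 0.340 in zygotes, 1.06 ± 0.391 in 2-cell and 1.58 ± 0.398 in 8-cell blastomeres. The 2-cell value with Dam-lamin B1 was its lowest.

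In 8-cell blastomeres free Dam was highest over clusters that lay in neither LAD list. Zfp623 to Zfp647 averaged 0.795 OE with Dam-lamin B1 and 5.23 with Dam, Zfp553 to Zfp646 averaged 0.968 and 4.91, and Zfp60 to Zfp36 averaged 1.04 and 3.71. Only 4 Dam cells stand behind the 8-cell values. Over all member bins without the chromosome 4 cluster, Dam-lamin B1 means were 1.12, 0.864, 0.800, 1.19 and 0.773 from oocyte to ES cell, close to the 0.982, 0.860, 0.762, 1.02 and 0.742 of the other Zfp genes. Free Dam means of the same clusters were 1.20, 1.21, 1.46 and 1.94 from oocyte to 8-cell, against 1.18, 1.31, 1.48 and 2.00 for the other Zfp genes and 0.826, 0.778, 0.806 and 0.576 for Olfr genes.

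**Figure D1:**
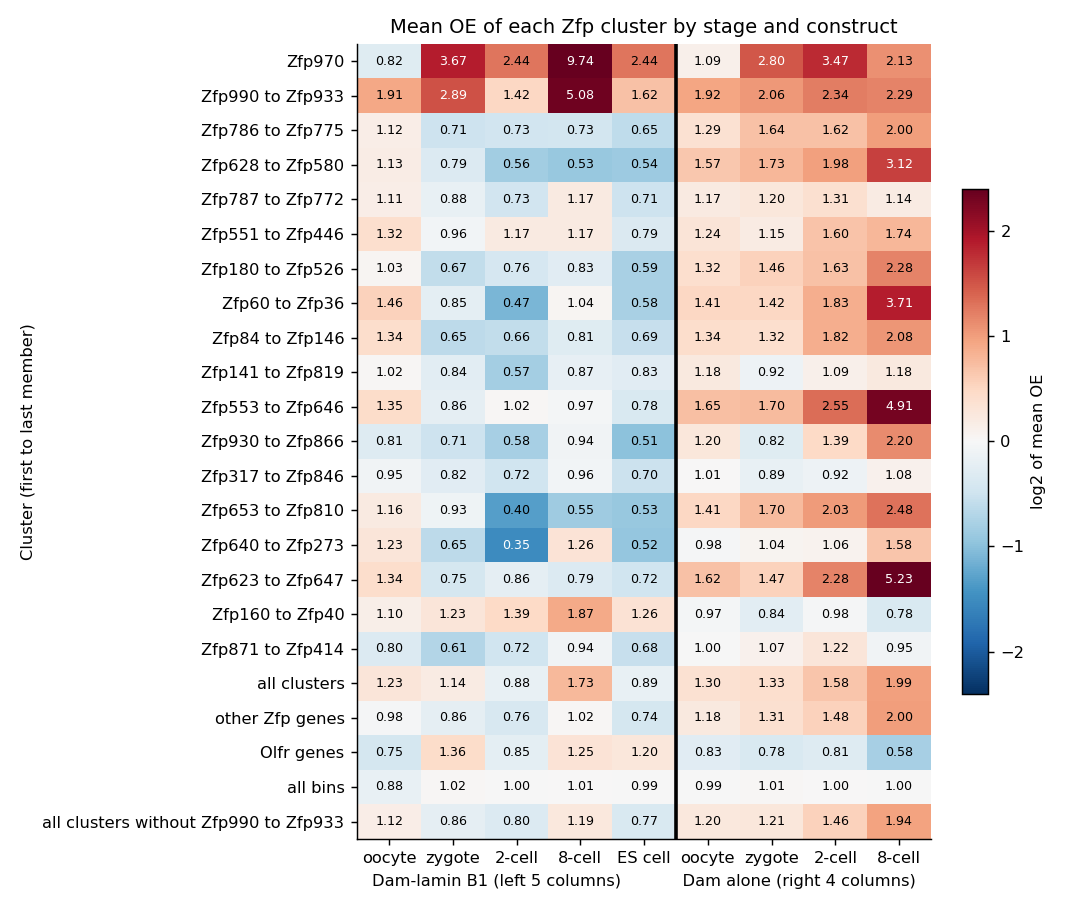
Mean OE (printed number, with its log2 as colour) of the member bins of each cluster (rows) by stage and construct (columns, Dam-lamin B1 left and free Dam right), with all clusters, the other Zfp genes, Olfr genes and all bins as rows for comparison. The Zfp990 to Zfp933 row reads 5.08 and the Zfp970 row 9.74 in 8-cell Dam-lamin B1 cells, while the all-bin row stays between 0.885 and 1.02.

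The comparison of Dam-lamin B1 with Dam in zygotes asks which clusters the lamina construct marked beyond accessibility. Of the 102 member bins, 8 were higher with Dam-lamin B1 and 47 lower (limma, adjusted p below 0.05, 59 at an unadjusted p below 0.05). In the whole genome 59.8% of 23969 bins were called, 22% higher and 37.8% lower, so the members had 7.84% higher and 46.1% lower. The median log2 difference was -0.57 over member bins and -0.36 over all bins. With equal reads 8 member bins were higher and 21 lower. Of the 33 member windows 5 were higher and 18 lower, beside 81.9% of all windows called, 32.7% higher and 49.2% lower.

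The LAD lists of the blastocyst divided the members of the zygote comparison. Of the 43 member bins in both lists 8 were higher with Dam-lamin B1 and 3 lower, beside 34% higher and 16% lower among all bins in both lists. Of the 45 member bins in neither list none was higher and 35 (77.8%) were lower, beside 2.13% and 74.3% of all bins in neither list, and the medians were -0.84 for members and -0.88 for all such bins. The members outside LADs thus had a share lower near that of any bin outside LADs. The other Zfp genes had 1 bin higher and 103 lower of 161, and Olfr genes 163 higher and 42 lower of 338.

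The 8 member bins higher with Dam-lamin B1 lay in 2 clusters, 5 in Zfp990 to Zfp933 and 3 in Zfp160 to Zfp40. The bin of Zfp944 and Zfp758 in the chromosome 17 cluster ran from 0 through 1.83 to 7.33 OE in Dam-lamin B1 zygotes and from 0 through 0.651 to 2.57 in Dam zygotes. The Dam-lamin B1 median was the higher, the groups overlapped, and the log2 difference was 1.23 (SE 0.28, limma adjusted p = 0.000124). The bin of Zfp945 in the same cluster ran from 0 through 1.31 to 3.63 with Dam-lamin B1 and from 0 through 0.605 to 3.51 with Dam, a log2 difference of 0.87 (SE 0.30, limma adjusted p = 0.00830).

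In the chromosome 4 cluster the bin of Zfp985 ran from 0.741 through 3.92 to 9.92 OE in Dam-lamin B1 zygotes and from 0 through 2.07 to 4.36 in Dam zygotes. Its log2 difference was 0.70 (SE 0.23, limma adjusted p = 0.00526), and 1 other bin of this cluster was lower. Among windows, the one of chromosome 17 that holds Zfp947 to Zfp945 was higher by 0.82 (limma adjusted p = 1.92e-10). The Zfp317 window of chromosome 9 was higher by 0.83 (limma adjusted p = 3.35e-09), although no member bin of that cluster passed. Zfp317 is the only member there, and the window's other bins hold no member. The chromosome 4 windows starting at 147 and 146 Mb were higher by 0.33 and 0.36 (limma adjusted p = 0.00403 and 0.0454). The Zfp141 to Zfp975 window of chromosome 7 was higher by 0.34 (limma adjusted p = 0.0305).

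The lowest members with Dam-lamin B1 came from clusters outside LADs. Zfp467, a regulator of osteoblast and adipocyte fate near the end of the chromosome 6 cluster, ran from 0 through 0.611 to 1.04 OE in Dam-lamin B1 zygotes and from 0 through 2.04 to 6.85 in Dam zygotes. The Dam-lamin B1 maximum lay under the Dam median, and the log2 difference was -1.81 (SE 0.26, limma adjusted p = 4.66e-09). Zfp629 of Zfp553 to Zfp646 ran from 0 through 0.379 to 2.03 against 0.382 through 1.24 to 3.30, a log2 difference of -1.55 (SE 0.27, limma adjusted p = 7.96e-07). Zfp36 ran from 0 through 0.752 to 2.12 against 0 through 2.05 to 5.26, a log2 difference of -1.47 (SE 0.25, limma adjusted p = 3.61e-07).

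Other called members with large differences were all lower with Dam-lamin B1. Zfp60 differed by -1.47, the bin of Zfp383 and Zfp74 by -1.41, Zfp775 by -1.39 and Zfp94 by -1.33 (log2, limma adjusted p between 5.02e-06 and 1.54e-05). The bin of Zfp87 and Zfp748, in the chromosome 13 cluster, differed by -1.32 with medians of 0 in Dam-lamin B1 zygotes and 1.16 in Dam zygotes. Zfp526, Zfp653, Zfp428 with Zfp575, Zfp628 with Zfp579, Zfp623 with Zfp707, Zfp647 and Zfp414 lay between -1.20 and -1.06. Zfp112 with Zfp235 and Zfp114, Zfp790 with Zfp940, Zfp420 and Zfp27, Zfp111 with Zfp109, Zfp108, Zfp93 and Zfp61, and Zfp273 lay between -1.05 and -1.0.

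By cluster, all 7 bins of Zfp180 to Zfp526, all 5 of Zfp786 to Zfp775, all 5 of Zfp84 to Zfp146 and all 5 of Zfp553 to Zfp646 were lower with Dam-lamin B1. The same held for all 3 bins of Zfp653 to Zfp810, all 3 of Zfp623 to Zfp647 and both of Zfp628 to Zfp580. Zfp640 to Zfp273 had 5 of 10 bins lower and Zfp871 to Zfp414 4 of 7. Beside these counts, 74.3% of all bins in neither LAD list were lower. The share was 38.7% of all bins in the ICM list only, 29.6% in the TE list only and 16% in both. No bin passed the test in Zfp930 to Zfp866, Zfp317 to Zfp846 or Zfp970.

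**Figure D2:**
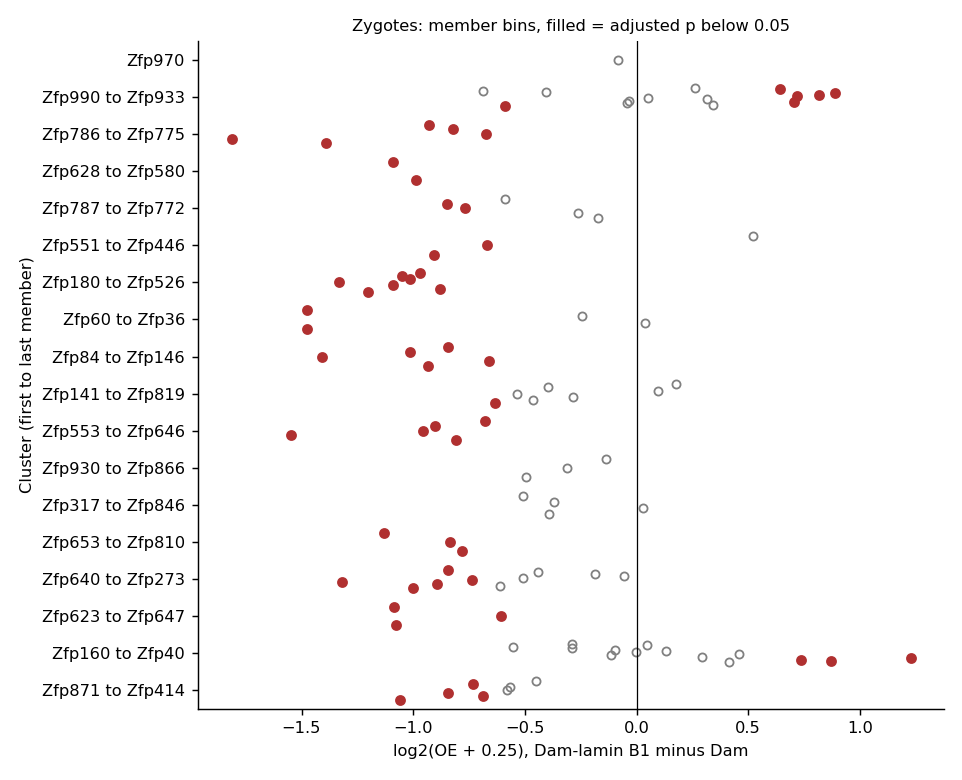
Log2 difference in OE between Dam-lamin B1 and Dam zygotes (x axis) for each member bin (points, filled where the limma adjusted p is below 0.05), by cluster (rows). Points of Zfp180 to Zfp526 and Zfp786 to Zfp775 all lie left of 0, and points of Zfp990 to Zfp933 lie on both sides.

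A hand-picked list of genes outside the clusters joins Trim28 and Setdb1 with other repressors of chromatin, among them general factors of DNA and H3K9 methylation. Whether each acts with KRAB zinc finger proteins was not tested. Of the 19 genes listed none was higher with Dam-lamin B1 in zygotes and 12 (63.2%) were lower (limma). Of all bins 37.8% were lower, and of all bins in neither LAD list, where 13 of the 19 genes lie, 74.3%. Uhrf1, which reads hemimethylated DNA for DNMT1, differed by -1.96 (SE 0.26, limma adjusted p = 4.33e-10), with 0.513 ± 0.817 OE in Dam-lamin B1 zygotes (n = 19) and 2.20 ± 1.31 in Dam zygotes (SD, n = 46). Trim28, the co-repressor that KRAB domains bind, differed by -1.09 (SE 0.28, limma adjusted p = 0.000411), with 0.670 ± 0.762 and 1.39 ± 0.834 OE. The other lower genes were Chd4 (-1.55), Chd3 (-1.44), Hdac1 (-1.21), Ehmt1 (-1.21), Morc3 (-1.14), Ehmt2 (-0.97), Cbx1 (-0.92), Setdb1 (-0.74), Dnmt1 (-0.66) and Dnmt3a (-0.63). Suv39h2, Cbx3, Smarcad1, Atf7ip, Resf1, Hdac2 and Cbx5 did not pass the test. In the 8 other comparisons between 2 groups, Chd3 (0.95, adjusted p = 0.0300) and Dnmt3a (1.10, adjusted p = 0.0157) were higher in paternal than in maternal pronuclei with wild-type Kdm5b (limma), and no other bin of this list was called.

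The pronuclei ask whether paternal and maternal chromosomes differ at these clusters before they mix. Without Kdm5b the chromosome 4 cluster was lower in paternal pronuclei: its mean OE was 1.54 ± 0.787 in paternal (n = 15) and 3.61 ± 1.89 in maternal pronuclei (SD, n = 10). The 15 paternal pronuclei ran from 0.721 through a median of 1.18 to 3.08, and the 10 maternal ones from 0.835 through 4.51 to 5.69. The median maternal pronucleus lay above every paternal one, and the lower maternal pronuclei lay among them. In 13 of its 14 bins the log2 difference was negative, with a median of -0.92. The difference was also negative in 9 of 10 bins of Zfp640 to Zfp273 (median -0.49), 10 of 14 of Zfp160 to Zfp40 (-0.27), 3 of 4 of Zfp317 to Zfp846 (-0.51) and 3 of 3 of Zfp551 to Zfp446 (-0.46), where no bin passed the test. Medians were positive in Zfp786 to Zfp775 (0.42), Zfp871 to Zfp414 (0.38), Zfp623 to Zfp647 (0.35) and Zfp628 to Zfp580 (0.26). Those of Zfp653 to Zfp810 (0.20), Zfp84 to Zfp146 (0.12) and Zfp180 to Zfp526 (0.08) were positive too, and the remaining clusters had negative medians. The strain of the males that fathered the isolated pronuclei is not given beyond the C57BL/6 label and copy number was not measured, so a parental difference in copy number and one in lamina contact cannot be told apart in these OE values.

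Of the 102 member bins, 3 differed without Kdm5b, all lower in paternal pronuclei and all in this cluster (limma, 13 at an unadjusted p below 0.05). In the genome 2.1% of 23964 bins were called, 1.82% higher and 0.275% lower in paternal pronuclei, and the median log2 difference was -0.23 over member bins and 0.19 over all bins. Centring each pronucleus on its own median moved the all-bin median to 0.05 and the member median to -0.37. The 3 bins no longer passed with that centring (limma adjusted p between 0.0843 and 0.130), with equal reads (0.0646 to 0.361) or without the filter on low OE (0.0515 to 0.127), and their sign stayed negative. The other Zfp genes had no called bin of 159 (12 at an unadjusted p below 0.05), and Olfr genes 5 higher of 338. Fisher's exact test on OE of at least 1 called no member bin.

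Zfp988, in the bin from 147.3 Mb, ran from 0 through 2.35 to 5.96 OE in paternal pronuclei and from 0.804 through 7.12 to 12.8 in maternal pronuclei. Its log2 difference was -1.62 (SE 0.35, limma adjusted p = 0.00694). Zfp982, in the next bin, ran from 0 through 1.33 to 7.08 in paternal and from 1.79 through 5.81 to 11.4 in maternal pronuclei, a log2 difference of -1.68 (SE 0.37, limma adjusted p = 0.00715). Zfp985, in the bin after that, ran from 0 through 1.80 to 6.58 in paternal and from 1.31 through 5.08 to 11.1 in maternal pronuclei, a log2 difference of -1.39 (SE 0.35, limma adjusted p = 0.0184). These are the genes whose promoters are printed above. In each bin at least 1 paternal pronucleus had no read and none of the maternal ones was empty, and the ranges overlapped.

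The reads behind those bins were few. Zfp988 had a median of 5 recovered reads per paternal and 9 per maternal pronucleus, Zfp982 had 7 and 18.5, and Zfp985 had 8 and 16.5. Median depth over the genome was 144974 reads in paternal and 83404.5 in maternal pronuclei. The part of depth in these bins was not tested beyond the equal reads above. Expected reads in the 3 bins were 0.353, 0.910 and 0.829 of the genome median, the lowest in the bin of Zfp988. The bin that holds Zfp979 and Zfp534 averaged 1.35 in paternal and 4.87 in maternal pronuclei and missed the threshold (limma adjusted p = 0.0560).

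The 1 Mb window from 147 Mb, which holds Zfp991, Zfp978, Zfp988, Zfp982, Zfp985, Zfp979, Zfp534, Zfp984 and Zfp933, gathered a median of 35 reads per paternal and 67 per maternal pronucleus. Its mean OE ran from 0.706 through 1.31 to 3.08 in paternal and from 1.35 through 3.67 to 6.99 in maternal pronuclei. The log2 difference was -1.08 (SE 0.25, limma adjusted p = 0.00405), and this window passed under each alternative fitted with limma. The window from 146 Mb, with Zfp987, Zfp600, Zfp992, Zfp981 and Zfp993, ran from 0.287 through 0.935 to 2.10 in paternal and from 0.495 through 2.66 to 5.34 in maternal pronuclei (log2 -1.06, SE 0.32, limma adjusted p = 0.0299).

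One other member window was called, in the opposite direction. The window of Zfp623 and Zfp707 on chromosome 15 ran from 0.483 through 0.755 to 1.17 OE in paternal and from 0.214 through 0.450 to 0.703 in maternal pronuclei (log2 0.56, SE 0.17, limma adjusted p = 0.0272). These genes share a bin, and the other bins of their window hold no member. The window did not pass after per-cell centring (limma adjusted p = 0.0927), when the windows called were 0 higher and 3 lower. In all, 1 of 33 member windows was higher and 2 were lower in paternal pronuclei, beside 8.7% of all windows called, 7.28% higher and 1.41% lower.

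Bins around the chromosome 4 cluster were compared in the same way. Of 22 tested bins inside its span 4 were lower in paternal pronuclei, 1 of them among the 8 bins without a member. In the 1 Mb before the span, whose 10 bins also lay in both LAD lists, no bin was called and the median log2 difference was -0.42. In the 1 Mb after it, where no bin lay in both LAD lists, no bin was called and the median was 0.45, against -0.88 inside the span. Over all bins in both LAD lists the median was 0.20, beside 0.19 over all bins, both before centring. The part of LAD membership in the chromosome 4 difference was not tested. Paternal and maternal LAD contrasts (log2 of mean OE in bins of both lists over bins without any LAD cover) were 0.76 ± 0.29 and 0.68 ± 0.21 (SD, n = 15 and 10).

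**Figure D3:**
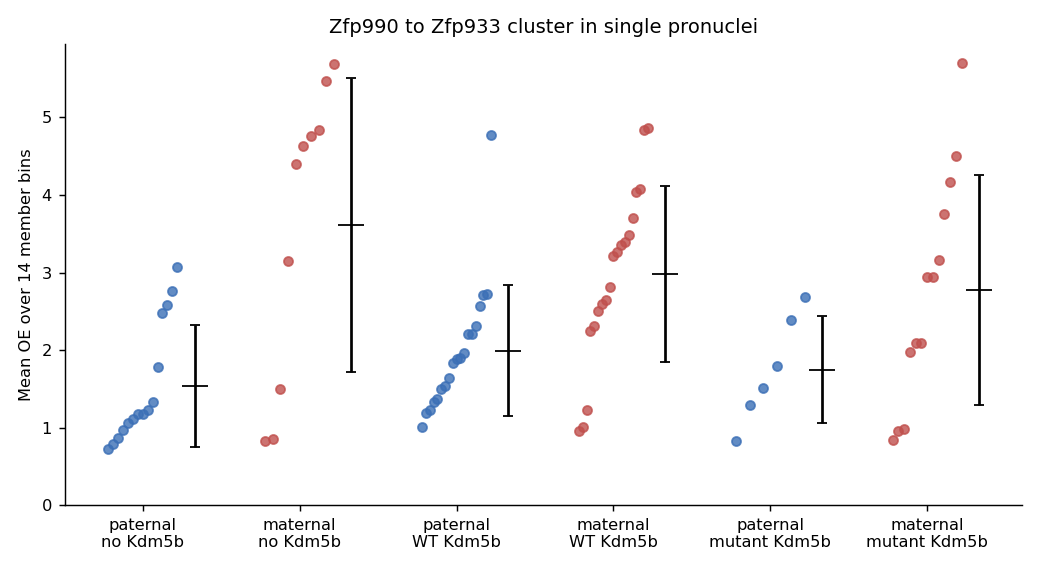
Mean OE over the 14 member bins of Zfp990 to Zfp933 (y axis) in each pronucleus (points), with mean and SD per group, for paternal (left) and maternal (right) pronuclei without Kdm5b and with wild-type or mutant Kdm5b. Paternal means are 1.54, 1.99 and 1.75, and maternal means 3.61, 2.98 and 2.78.

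The pronuclei with wild-type Kdm5b, an H3K4me3 demethylase, share no cells with those without it, so the same measure could be read again. The chromosome 4 cluster averaged 1.99 ± 0.846 in paternal (n = 19) and 2.98 ± 1.13 OE in maternal pronuclei (SD, n = 19), with medians of 1.89 and 3.22 and ranges of 1.01 to 4.77 and 0.953 to 4.86. The window from 147 Mb ran from 0.961 through 2.05 to 4.54 in paternal and from 0.881 through 2.99 to 5.58 in maternal pronuclei (log2 -0.46, SE 0.18, limma adjusted p = 0.0416). The window from 146 Mb was lower by 0.55 on the log2 scale in paternal pronuclei (limma adjusted p = 0.0241). Zfp985 ran from 0 through 2.25 to 5.52 in paternal and from 1.01 through 4.10 to 14.9 in maternal pronuclei (log2 -0.83, SE 0.24, limma adjusted p = 0.01). Zfp988 differed by -0.60 and Zfp982 by -0.59 (SE 0.22 each, limma adjusted p = 0.0467 and 0.0473), with groups that overlapped over most of their range.

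In this second set 6 member bins were higher and 4 lower in paternal pronuclei of 102 (limma, 18 at an unadjusted p below 0.05), beside 15.6% of all bins called, 14.4% higher and 1.21% lower. Median log2 differences were 0.03 over member bins and 0.26 over all bins. The split depended on scaling: per-cell centring moved the all-bin median to -0.02 and left 1 member bin higher and 8 lower. With equal reads none was higher and 2 were lower. The fourth lower bin was that of Zfp40 at the end of the chromosome 17 cluster, which ran from 0 through 0.677 to 2.55 in paternal and from 0 through 1.01 to 5.18 in maternal pronuclei (log2 -1.02, SE 0.36, limma adjusted p = 0.0375).

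Of the 6 higher bins 5 lay in neither LAD list, which is 11.1% of the 45 member bins there, beside 19.1% of all bins in neither list. The bin of Zfp811, Zfp799 and Zfp870 on chromosome 17 ran from 0 through 0.985 to 3.27 in paternal and from 0 through 0 to 1.15 in maternal pronuclei. The maternal median was 0. The log2 difference was 1.32 (SE 0.35, limma adjusted p = 0.00363), and it still passed after centring (adjusted p = 0.0356). Zfp574 ran from 0 through 1.44 to 3.30 in paternal and from 0 through 0.555 to 1.55 in maternal pronuclei (log2 1.24, SE 0.34, limma adjusted p = 0.00591). Zfp871 differed by 1.15, the bin of Zfp976 and Zfp975 by 0.95, that of Zfp658 and Zfp719 by 0.94 and that of Zfp777 and Zfp746 by 0.93 (limma adjusted p between 0.0112 and 0.0434). Of these, Zfp574 (adjusted p = 0.0521), Zfp871 and the last 3 bins did not pass after centring.

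Among windows 6 were higher and 5 lower of 33, beside 34.6% of all windows called, 28.7% higher and 5.91% lower, and centring made it 3 higher and 11 lower. The 3 that stayed higher after centring were those of Zfp871 to Zfp952 (0.70), Zfp623 and Zfp707 (0.58) and Zfp568 to Zfp146 (0.49), with limma adjusted p of 7.81e-05, 0.000111 and 0.00164 before it. Zfp568, in the last of these, is known for repressing a placental Igf2 transcript. The windows of Zfp777 to Zfp775 (0.42), Zfp251 to Zfp647 (0.42) and Zfp141 to Zfp975 (0.49) did not pass after centring. Lower beside the chromosome 4 windows were those of Zfp712 to Zfp273 on chromosome 13 (-0.52), Zfp160 to Zfp943 on chromosome 17 (-0.40) and Zfp970 on chromosome 2 (-0.51), with limma adjusted p of 0.00510, 0.02 and 0.0415. The Zfp712 to Zfp273 window ran from 0.270 through 0.696 to 1.34 in paternal and from 0.439 through 1.14 to 2.32 in maternal pronuclei.

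With mutant Kdm5b no member bin and no member window was called between paternal (n = 6) and maternal (n = 13) pronuclei by limma (6 bins and 3 windows at an unadjusted p below 0.05, and 0 bins and 0 windows by Fisher's exact test). The genome had 0.777% of bins and 8.57% of windows called, 8.49% higher and 0.0832% lower in paternal pronuclei for windows. The window from 147 Mb ran from 1.38 through 1.60 to 3.94 in paternal and from 0.654 through 2.64 to 7.33 in maternal pronuclei (log2 -0.37, SE 0.30, limma adjusted p = 0.529). The cluster averaged 1.75 ± 0.692 and 2.78 ± 1.48 OE, a lower paternal mean again, within the spread of the maternal pronuclei. The members with the smallest p were Zfp40 (-1.54), Zfp947 (-1.45) and Zfp945 (-1.46) on the lower side, all of the chromosome 17 cluster, and Zfp467 (1.24), the bin of Zfp809, Zfp599 and Zfp810 (1.19) and Zfp160 (1.07) on the higher side, with limma adjusted p of 0.231 to 0.455. Whether the chromosome 4 difference depends on Kdm5b was tested only as the interaction below.

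**Figure D4:**
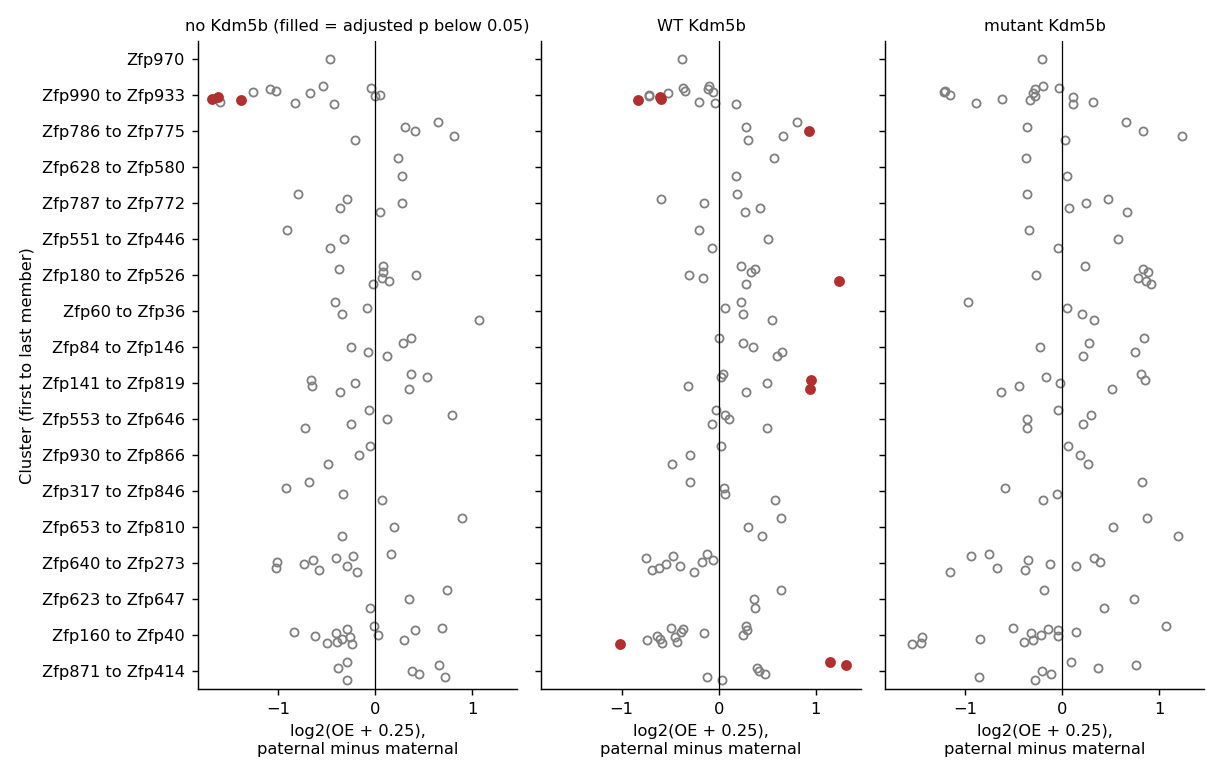
Log2 difference in OE between paternal and maternal pronuclei (x axis) for each member bin (points, filled where called), by cluster (rows), without Kdm5b, with wild-type Kdm5b and with mutant Kdm5b (panels). The Zfp990 to Zfp933 points lie mostly left of 0, with 13 of 14 negative in the panel without Kdm5b.

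The comparison of wild-type with mutant Kdm5b asks whether the demethylase shifts the clusters relative to the lamina, and it reuses the pronuclei of the parental comparisons. In paternal pronuclei no member bin was called (15 at an unadjusted p below 0.05, 0 by Fisher's exact test, and 0.0167% of all bins called), with median log2 differences of 0.25 over members and 0.08 over all bins. In windows 6 of 33 were higher and none lower with wild-type Kdm5b (limma, 13 at an unadjusted p below 0.05), beside 31.8% of all windows, 17.3% higher and 14.5% lower. After per-cell centring 2 were higher and 1 lower.

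The window of Zfp553 to Zfp646, with its 10 members, ran from 0.777 through 1.12 to 1.39 OE with wild-type and from 0.226 through 0.719 to 1.29 with mutant Kdm5b (log2 0.57, SE 0.16, limma adjusted p = 0.00927). The window of Zfp628 and Zfp579 ran from 0.680 through 1.01 to 1.57 with wild-type and from 0.494 through 0.605 to 1.05 with mutant Kdm5b (log2 0.47, SE 0.14, limma adjusted p = 0.0135). Zfp628 and Zfp579 share a bin, and the other bins of their window hold no member. Both windows passed after centring, and the first also with equal reads, while none of the 6 windows was called by Fisher's exact test. The others were Zfp568 to Zfp146 (0.48), Zfp777 to Zfp775 (0.45), Zfp787 to Zfp28 (0.44) and Zfp936 to Zfp819 (0.37), with limma adjusted p of 0.0145, 0.0205, 0.0448 and 0.0457. All 6 lay on chromosomes 6 and 7. In the same pronuclei the LAD contrast was -0.09 ± 0.21 with wild-type and 0.54 ± 0.32 with mutant Kdm5b (SD, n = 19 and 6), and its part in these windows was not tested.

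The bins with the smallest p for wild-type above mutant Kdm5b in paternal pronuclei were Zfp992 (1.16), Zfp94 (1.38) and Zfp819 (1.15), with limma adjusted p of 0.165 to 0.204. Zfp992, of the chromosome 4 cluster, ran from 0 through 2.4 to 8.39 with wild-type and from 0 through 1.45 to 2.84 with mutant Kdm5b. On the lower side stood Zfp772 (-0.96), the bin of Zfp942 and Zfp943 (-0.72) and Zfp160 (-0.60), with adjusted p of 0.382 to 0.483. In maternal pronuclei no member bin or window was called by limma (5 of each at an unadjusted p below 0.05) and none by Fisher's exact test, beside 0% of bins and 0.375% of windows. Zfp94 had the smallest p there too, from 0 through 1.37 to 2.86 with wild-type and from 0 through 0.455 to 1.25 with mutant Kdm5b (log2 1.42, SE 0.46, limma adjusted p = 0.295). Zfp667 (1.26) and the bin of Zfp524, Zfp865, Zfp784 and Zfp580 (0.96) followed, and Zfp981 (-0.83), Zfp936 (-0.73) and Zfp640 (-0.64) were the lowest.

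The interaction of parent and Kdm5b called no member bin and no member window (0 bins and 1 window at an unadjusted p below 0.05), beside 0.00417% of bins and 0% of windows. The smallest adjusted p was 0.611 over the member windows. Among bins, Zfp60 (1.19), Zfp871 (1.06) and Zfp947 (0.99) were the most positive and Zfp317 (-1.11), Zfp667 (-1.07) and Zfp759 (-1.08) the most negative by p, with limma adjusted p of 0.841 to 0.874. A difference between the parents in the response to Kdm5b was not detected at this depth and number of pronuclei.

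In whole zygotes Kdm5b gave no called member bin (limma, 14 at an unadjusted p below 0.05, 0 by Fisher's exact test, 0% of all bins) and 1 member window, that of Zfp628 and Zfp579, beside 4.2% of all windows, 3.5% higher and 0.707% lower. It ran from 0.460 through 1.07 to 1.36 OE with wild-type and from 0.0253 through 0.544 to 0.911 with mutant Kdm5b (log2 0.85, SE 0.22, limma adjusted p = 0.0432). It passed with a pseudocount of 1, and lost the call with a pseudocount of 0.1, per-cell centring, equal reads and Fisher's exact test. The LAD contrast was 0.31 ± 0.44 with wild-type and 1.02 ± 0.60 with mutant Kdm5b (SD, n = 14 and 9), and its part was not tested. Its bin ran from 0.198 through 1.35 to 3.12 with wild-type and from 0 through 0 to 0.767 with mutant Kdm5b (log2 1.57, limma adjusted p = 0.0902). The bin of Zfp658 and Zfp719 (1.35) and Zfp653 (1.32) came next, and Zfp947 (-0.91), Zfp317 (-0.74) and Zfp994 (-0.72) stood lowest, with adjusted p of 0.111 to 0.306. Median depths were 216228.5 and 85761 reads with wild-type and mutant Kdm5b.

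**Figure D5:**
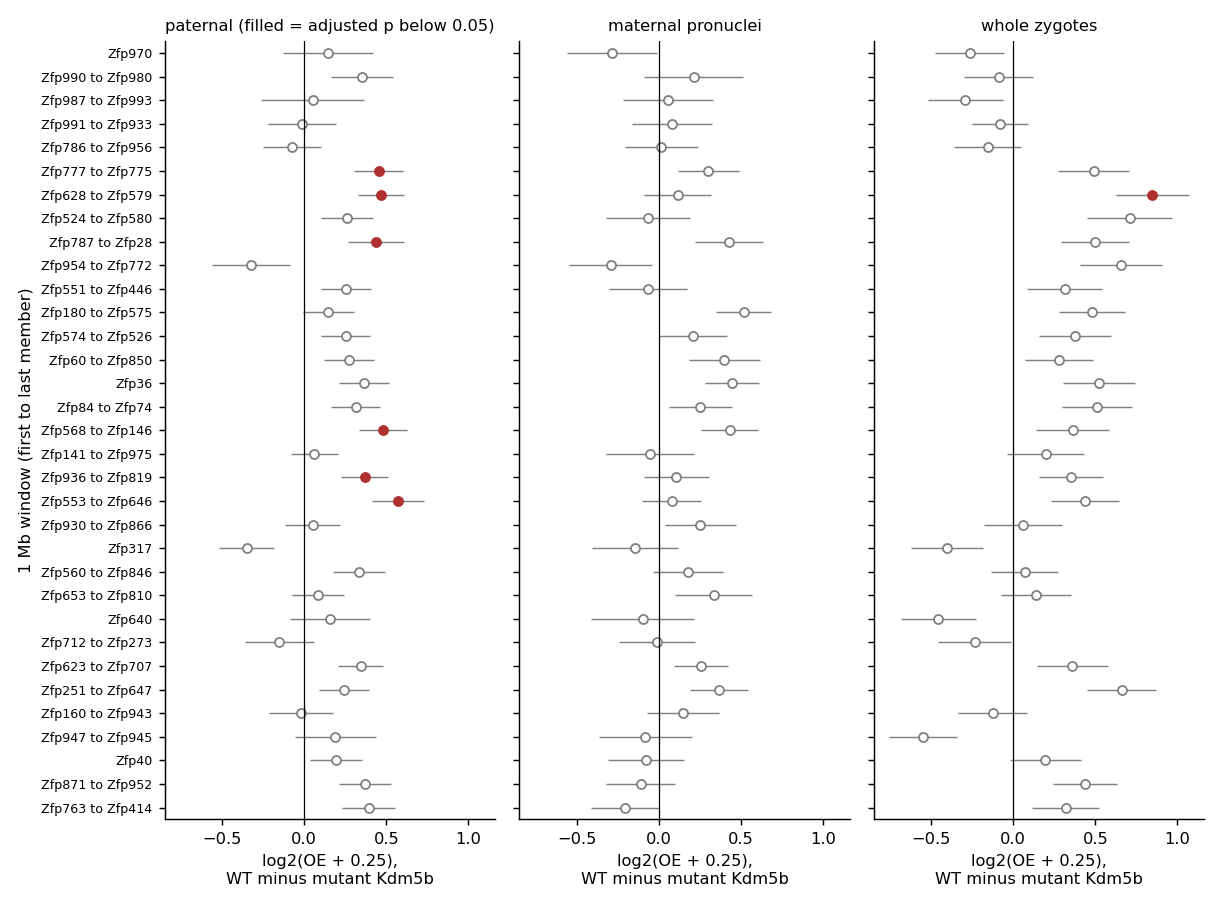
Log2 difference in mean OE between wild-type and mutant Kdm5b (x axis, with SE) for the 33 tested 1 Mb windows that hold a member (rows), in paternal pronuclei, maternal pronuclei and whole zygotes (panels). Called windows, drawn filled, are 6, 0 and 1, all to the right of 0.

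Kdm4d, an H3K9me3 demethylase, and aphidicolin, an inhibitor of DNA replication, gave no called member bin or window in whole zygotes. For wild-type against mutant Kdm4d, 9 bins and 3 windows had an unadjusted p below 0.05, every member bin had an adjusted p of 1, the smallest adjusted p of a window was 0.774, and 0.00418% of all bins and 0% of windows were called. The 3 smallest p on the lower side belonged to the chromosome 4 cluster. Zfp981 ran from 0 through 0.738 to 2.83 OE with wild-type and from 0 through 1.79 to 3.65 with mutant Kdm4d (log2 -1.27, SE 0.44), Zfp992 differed by -1.04 and Zfp978 by -0.99. The cluster averaged 2.60 ± 1.05 with wild-type (n = 12) and 3.55 ± 1.42 with mutant Kdm4d (SD, n = 10), within the spread of the zygotes. Zfp180 (0.65), Zfp653 (0.64) and the bin of Zfp979 and Zfp534 (0.50) were the highest by p.

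For aphidicolin against DMSO, 6 bins and 2 windows had an unadjusted p below 0.05, the smallest adjusted p of a window was 0.780, and 0.00836% of all bins and 0% of windows were called. Zfp981 ran from 0 through 0.761 to 6.69 with aphidicolin and from 0.366 through 1.65 to 9.88 with DMSO (log2 -1.42, SE 0.45, limma adjusted p = 0.674), followed by Zfp988 (-0.44) and the bin of Zfp987 and Zfp600 (-1.05). Zfp560 of the chromosome 9 cluster ran from 0.550 through 2.21 to 3.16 with aphidicolin and from 0 through 0.509 to 1.80 with DMSO (log2 1.14, SE 0.45, limma adjusted p = 0.805), followed by Zfp980 (0.64) and the bin of Zfp658 and Zfp719 (0.81). The chromosome 4 cluster averaged 2.45 ± 0.863 with aphidicolin (n = 9) and 2.69 ± 0.886 OE with DMSO (SD, n = 11). Fisher's exact test called no member bin or window in either comparison.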

How the data were processed

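Single-cell DamID of mouse oocytes, embryos, pronuclei and ES cells was used. The authors deposited observed over expected (OE) ratio values per 100 kb autosomal bin for each cell, and LAD lists for ICM and TE. Reads were trimmed with cutadapt and mapped to mm10 with BWA 0.7.12, per the submitters' processing notes (other settings: not given in the sources used here). This table held 24639 bins, 617 of them without a value, and 512 cells. Groups came from the labels, which left 14 cells without a group (13 oocytes whose labels name both 20 and 50 ng, and 1 cell labelled with both constructs), and those were not used. Read numbers were recovered from the smallest step of each OE column (all values whole within 0.02 reads). They are estimates, and depth would scale up if 1 step stood for several reads.

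Each member was placed in the bin that holds its midpoint, from a RefSeq table of GRCm38. Tests were limma 3.58.1 in R 4.3.3, with a trend, on log2(OE + 0.25) of these deposited ratio values, over bins with a mean OE of at least 0.1 or 1 Mb windows with at least 5 bins, Benjamini-Hochberg adjusted over all. Fold changes are on that scale, which understates change at low OE. Alternatives were pseudocounts of 0.1 and 1, per-cell median centring, equal reads, a replicate block, Fisher's exact test on OE of at least 1, and no filter. Zygotes and pronuclei were the replicates. Named were the first, middle and last gene of each cluster, the 3 bins with the smallest p in each direction, and up to 20 called bins by size. Members and lists were chosen with earlier results of these data known. Scripts were tested on simulated data.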

Additional observations from a re-analysis of the deposited data

Results flagged for a closer look

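In groups of 4 to 10 cells, a cell whose cluster mean OE stood apart from the rest by Dixon's 95% criterion was looked for in 126 sets of cluster and group, and 13 were found. The criterion flags about 1 in 20 sets of independent, normally distributed values. The sets here share cells and OE is never negative, so the 13 cannot be judged against that rate. Causes were not tested.

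The chromosome 4 cluster Zfp990 to Zfp933 had a highest ES cell of 2.81 OE (next 1.92, median 1.54) and a highest aphidicolin zygote of 4.42 (next 2.68, median 2.20). Zfp628 to Zfp580 had a highest ES cell of 1.21 (next 0.712). Among the 4 free Dam cells of the 8-cell stage, Zfp970 reached 7.44 in 1 cell (next 1.08), and Zfp551 to Zfp446 fell to 0.697 in 1 cell (next 2.03).

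Maternal pronuclei without Kdm5b had single high cells in 3 clusters: 2.84 at Zfp551 to Zfp446 (next 1.60), 1.23 at Zfp553 to Zfp646 (next 0.811) and 4.83 at Zfp930 to Zfp866 (next 1.47). Paternal pronuclei with mutant Kdm5b had 1 high cell at Zfp160 to Zfp40, with 2.16 (next 1.03, median 0.765).

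Zygotes with mutant Kdm5b had single high cells of 14.7 at Zfp970 (next 4.01), 1.35 at Zfp84 to Zfp146 (next 0.703) and 1.31 at Zfp553 to Zfp646 (next 0.727). An aphidicolin zygote reached 1.59 at Zfp84 to Zfp146 (next 0.863).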

How the results depend on the processing

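No single result that passed the test was called with the opposite sign under the alternatives run. The split of a count into higher and lower could change, as given above for centring with wild-type Kdm5b. A single value held if it kept its call and direction. A count of calls held if its total, higher and lower together, was equal or within 1.5 times. Results that held numbered 126 with a pseudocount of 0.1, 120 with a pseudocount of 1, 102 with per-cell centring and 103 with the replicate block. With equal reads 79 held, without the filter 64 and with Fisher's exact test 65. In the same order 5, 10, 27, 26, 49, 12 and 58 single values lost the call, whatever their sign. Counts of called member bins or windows moved by over 1.5 times as follows, and the causes were not tested. In zygotes, Dam-lamin B1 against Dam, 55 bins became 29 with equal reads and 32 with Fisher's exact test. In pronuclei without Kdm5b, 3 bins became 0 with per-cell centring, 0 with equal reads, 0 with Fisher's exact test and 0 without the filter on low OE, and 3 windows became 0 with Fisher's exact test and 1 with the replicate block. With wild-type Kdm5b, 10 bins became 6 with a pseudocount of 1, 2 with equal reads, 0 with Fisher's exact test and 6 without the filter, and 11 windows became 2 with Fisher's exact test. Between wild-type and mutant Kdm5b in paternal pronuclei, 6 windows became 3 with centring, 0 with the replicate block and 0 with Fisher's exact test. In whole zygotes 1 window became 0 with a pseudocount of 0.1, 2 with a pseudocount of 1, and 0 with centring, equal reads, the replicate block and Fisher's exact test. The labels tie replicate numbers to no animal or day. Same-numbered cells correlated above 0.1 in some pairs but never in all: 4 of 9 in whole zygotes with Kdm5b (highest 0.363), 4 of 10 with Kdm4d (0.374), 3 of 19 in pronuclei with wild-type Kdm5b (0.243), and at most 1 pair elsewhere. Linking members within 2 Mb gave 15 clusters in place of 19. Counting members whose midpoint lies inside a LAD gave 57 in both lists, as by bin cover.

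The chromosome 4 window from 147 Mb passed in both sets of pronuclei under every alternative fitted with limma, with adjusted p of 0.00294 to 0.0115 without Kdm5b and 0.00960 to 0.0487 with wild-type Kdm5b. Fisher's exact test did not call it: 9 of 15 paternal and 10 of 10 maternal pronuclei reached an OE of 1 there without Kdm5b. Depth limits single bins, where a few reads stand behind each value.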
